A study of Macaca mulatta with 19 samples.

Results

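The epithelial genes KRT18, MSLN, CLDN4 and ITLN1 were followed across 19 libraries of luteinized granulosa cells from rhesus macaques. They were 4 of the 32386 genes in the count table, and they were selected on their measured levels in these same libraries, as higher with a degenerating oocyte or on a Western-style diet. Their levels along those 2 axes are therefore given as a description, without a test. CLDN4 (ENSMMUG00000044653), MSLN (ENSMMUG00000000835) and ITLN1 (ENSMMUG00000013391) carried their symbol in the table. KRT18 (ENSMMUG00000031911) was found through a reference table that pairs identifiers with symbols.

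The animals were females that received implants near menarche and were treated for about 3.5 years before 1 naturally selected periovulatory follicle was aspirated in a controlled ovulation cycle. Chow+C (4 libraries) had cholesterol implants and standard diet, and Chow+T (4) had testosterone implants, which raised the hormone 4 to 5 fold, with standard diet. WSD+C (5) had cholesterol implants and Western-style diet, and WSD+T (6) had testosterone implants and Western-style diet. No animal was without an implant, and since the labels mention no cell sorting, other cells of the aspirate can be present. By the oocyte recovered, 8 libraries were MI (metaphase I), 4 MII (metaphase II), 6 degenerating and 1 GV (germinal vesicle). Of the 6 degenerating libraries, 5 were on Western-style diet (WSD+C 4 and 5, WSD+T 3, 4 and 6) and 1 on chow (Chow+T 1), so diet and oocyte class overlap.

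Keratin 18 is the type I partner of keratin 8 in the intermediate filaments of simple epithelia, and granulosa cells can express both. Claudin 4 is a tight junction protein that narrows the path between epithelial cells. Mesothelin is a surface protein of mesothelium and of the ovarian surface and tubal epithelium, and intelectin 1 is a secreted lectin known from mesothelium, omentum and intestinal goblet cells.

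Gene counts ran from 28832132 to 56385679 per library, and the share of reads in genes from 49.1% (Chow+C 2) to 69.1%. Of 14 granulosa genes looked up, 11 were found in the table, and 10 of these reached 1 CPM in all 19 libraries, among them CYP19A1, STAR and FSHR. CPM is the count of a gene relative to its library's total gene counts after TMM scaling. WSD+C 4 stood apart. Its summed granulosa CPM was 2542, against 7558 to 17250 in the other libraries. Its summed CPM was 128813 for 8 red cell genes (others 12.4 to 3433), 246 for 12 oocyte genes (others 2.27 to 20.1) and 2953 for 12 smooth muscle and stroma genes (others 109 to 395). Its 14 leukocyte genes summed to 2281 CPM, beside 2452 in WSD+T 6 and 15.8 to 265 in the rest. Fitted differences of the 4 genes that rest on WSD+C 4 are given with and without it, and medians over gene lists only with it. In bulk RNA, more cells of a type and more RNA per cell cannot be told apart.

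The 4 genes did not share one pattern. KRT18 was read in all libraries and spread most among the degenerating ones. MSLN had 6 counts or fewer in 14 libraries, and most of its counts came from WSD+C 4. ITLN1 was read in all libraries, at 12 to 51 counts outside WSD+C 4 and 2258 in it. CLDN4 was above the overall median in all 6 degenerating libraries, while its single highest value came from an MI library on chow.

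**Figure D1:**
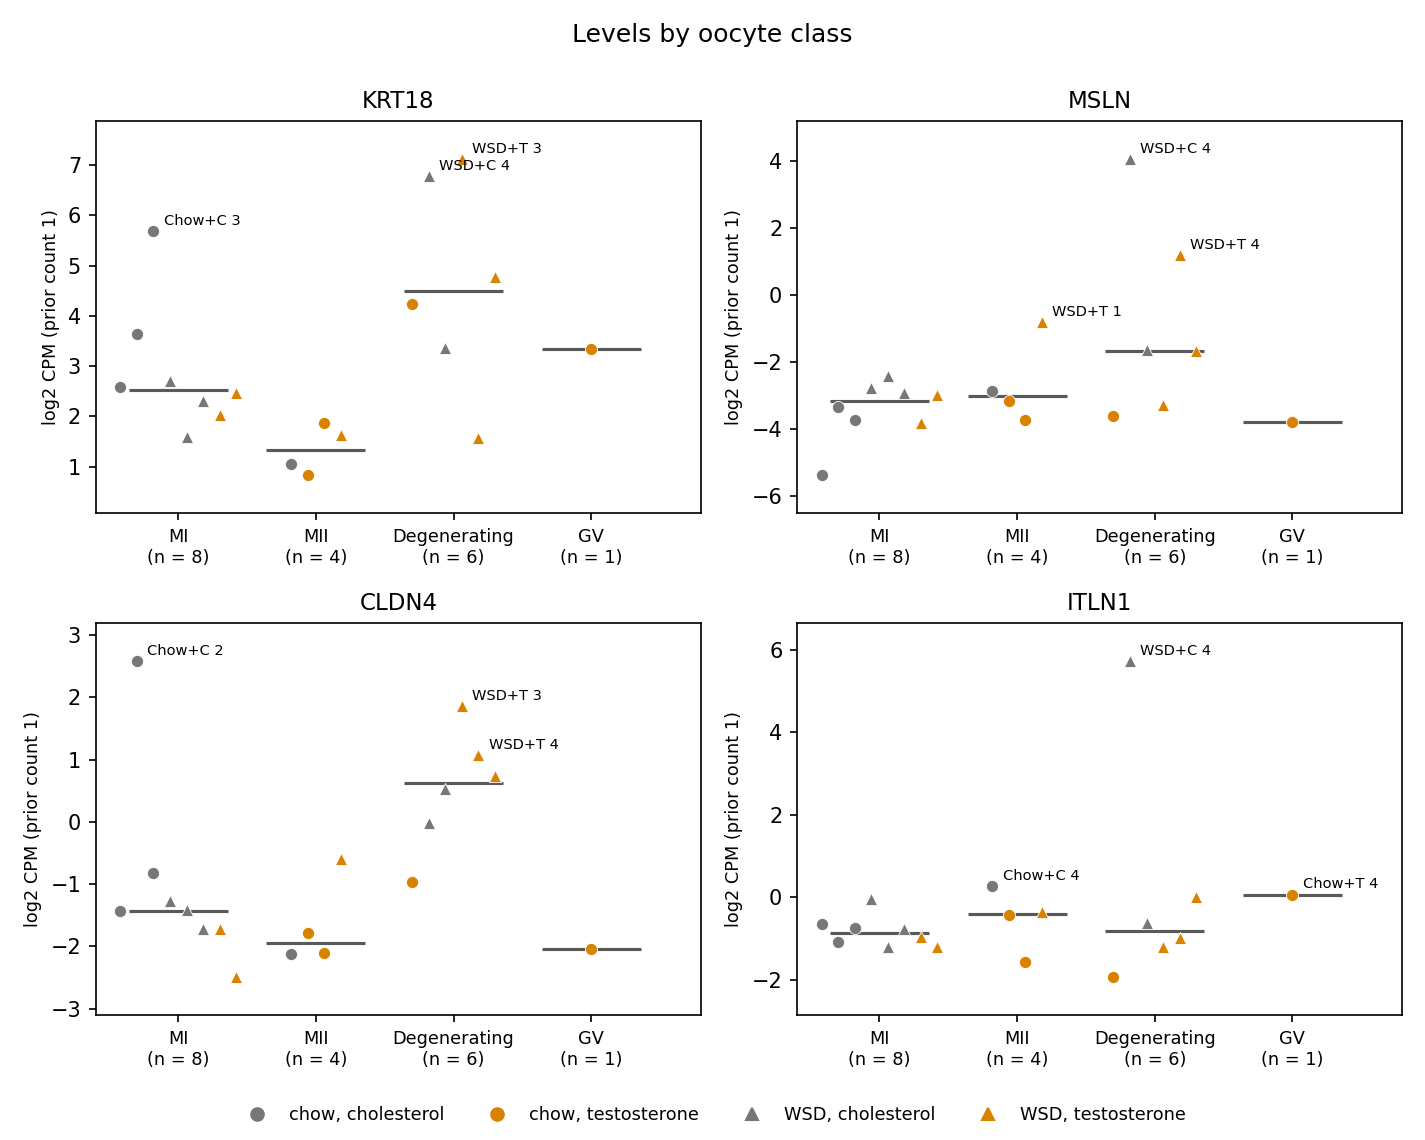
Level of KRT18, MSLN, CLDN4 and ITLN1 in each of 19 libraries by oocyte class (vertical axis log2 CPM with a prior count of 1; points are libraries, lines are medians, and the 3 highest libraries of each gene are named). WSD+C 4 is the top library for MSLN and ITLN1, WSD+T 3 for KRT18 and Chow+C 2 for CLDN4.

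KRT18, the keratin of the set, stood in the 6 degenerating libraries at 2.94 to 139 CPM with a median of 23.004. In the 8 MI libraries it stood at 2.97 to 51.5 CPM with a median of 5.72. The 4 MII libraries were at 2.05 (Chow+C 4), 1.76 (Chow+T 2), 3.62 (Chow+T 3) and 3.07 CPM (WSD+T 1). The degenerating range enclosed the MI range, and the MI and MII ranges overlapped between 2.97 and 3.62 CPM. The GV library, Chow+T 4, was at 10.1 CPM.

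Within the degenerating class, KRT18 was 139 CPM in WSD+T 3, 109.3 in WSD+C 4, 27.2 in WSD+T 6, 18.9 in Chow+T 1, 10.2 in WSD+C 5 and 2.94 in WSD+T 4. One library of the class, WSD+T 4, was thus among the lowest of all 19, ranking 17, while the others ranked 1, 2, 4, 5 and 7. Behind WSD+T 3 and WSD+C 4 came Chow+C 3, an MI library at 51.5 CPM. Without it the MI mean was 6.05 ± 3.06 (SD, n = 7), against 11.7 ± 16.3 with it (n = 8).

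By treatment, KRT18 was 5.95, 12.5, 51.5 and 2.05 CPM in Chow+C 1 to 4, and 18.9, 1.76, 3.62 and 10.1 CPM in Chow+T 1 to 4. In WSD+C 1 to 5 it was 6.49, 2.97, 4.96, 109.3 and 10.2 CPM, and the WSD+T group ran from 2.94 to 139 CPM with a median of 4.77. The 4 groups overlapped. Of the 11 libraries on Western-style diet, 5 lay above the overall median of 5.95 CPM, as did 4 of 8 on chow. Within that diet the 6 libraries without a degenerating oocyte averaged 4.51 ± 1.40 CPM (SD) and the 5 with one 57.7 ± 62.2. The median of these 5 was 27.2 CPM, and the lowest of them, 2.94, lay below the lowest of the 6, 2.97.

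The fitted log2 difference of KRT18 between degenerating and MI libraries, with the treatment group as a term, was 3.18 (SE 0.950), and 2.13 without WSD+C 4. Between Western-style diet and chow, averaged over both implants, it was 1.20 (SE 0.934), and 0.14 without WSD+C 4.

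KRT8 encodes the partner keratin, and it had the pattern most like KRT18 among 11170 genes compared (Spearman rho 0.88 over 19 libraries, a description with no test). Without WSD+C 4 the rho was 0.86 and KRT8 ranked 3 among them. KRT8 was 227 CPM in WSD+C 4, 83.7 in Chow+C 3, 71.7 in WSD+T 3, 41.7 in WSD+T 6 and 36.8 in Chow+T 1. The same 5 libraries led both keratins, in another order. Counts of KRT18 per count of KRT8 lay between 0.112 and 0.651 in 18 libraries and at 1.94 in WSD+T 3. That library therefore departed from the rest in the ratio of its keratins, with 7115 KRT18 counts. Keratin genes have many near-identical processed copies, so the split of reads among them is uncertain.

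**Figure D2:**
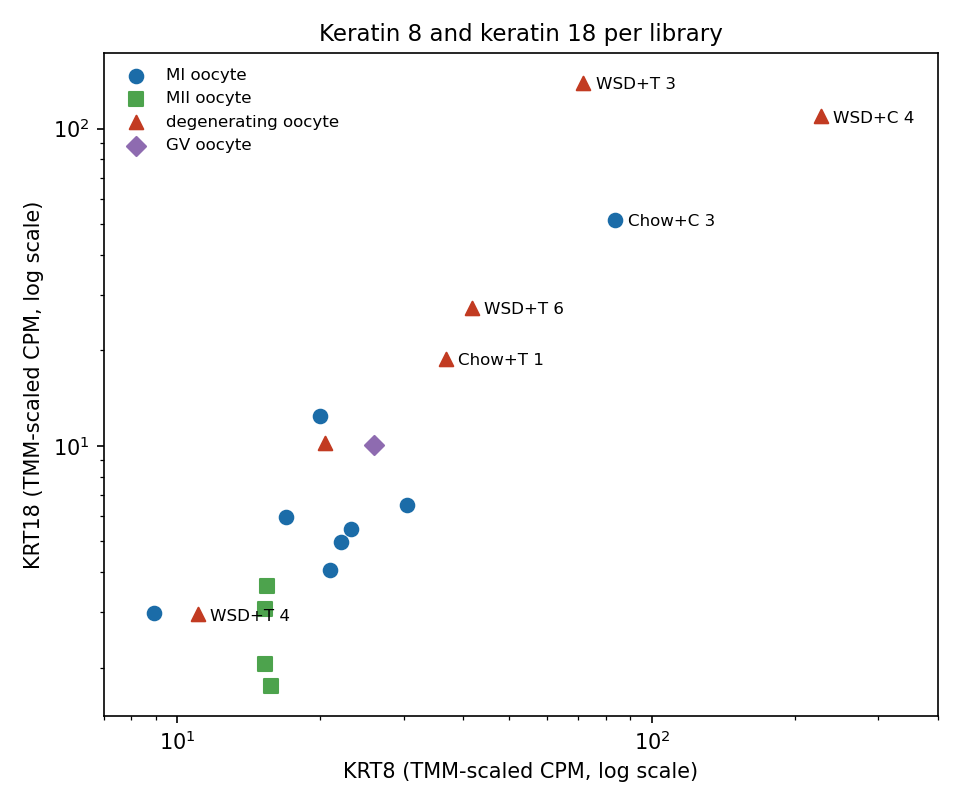
KRT18 against KRT8 in each of 19 libraries (CPM, both axes logarithmic, points marked by oocyte class). Most libraries with high KRT8 also have high KRT18, and WSD+T 3 lies above the rest with a KRT18-to-KRT8 count ratio of 1.94.

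The 4 genes next most like KRT18 were CUL4A (rho 0.86), a ubiquitin ligase scaffold, SYN1 (0.86), a synaptic vesicle protein, IFITM10 (0.85) and KIFC3 (0.85), a kinesin motor. KRT18 and KRT19, another simple keratin, were less alike (rho 0.26). The summed CPM of 8 endothelial genes had a rho of 0.60 with KRT18, and 0.54 without WSD+C 4. The part of endothelial cells in the KRT18 values was not tested.

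CLDN4, the claudin, stood at 0.490 CPM in Chow+T 1, 0.967 in WSD+C 4, 1.41 in WSD+C 5, 3.60 in WSD+T 3, 2.08 in WSD+T 4 and 1.64 in WSD+T 6, the 6 degenerating libraries. MI libraries ran from 0.153 to 5.99 CPM with a median of 0.349. MII libraries were at 0.207, 0.267, 0.209 and 0.637 CPM (Chow+C 4, Chow+T 2 and 3, WSD+T 1). The classes overlapped through Chow+C 2, an MI library that held the highest CLDN4 of all at 5.99 CPM, and through Chow+T 1.

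Without Chow+C 2, the other 7 MI libraries lay between 0.153 and 0.540 CPM (0.335 ± 0.119, SD), so that 5 of the 6 degenerating libraries lay above all of them. On Western-style diet alone, the 5 degenerating libraries (0.967 to 3.60 CPM) did not overlap the other 6 (0.153 to 0.637 CPM). The rule that chose the gene used this contrast, so the separation is a description. Of all 15019 genes, 1.48% had their 5 degenerating libraries above the other 6 in the same way. In the comparison of degenerating with MI libraries over both diets, edgeR called 0% of 14976 genes, and 14.3% passed an unadjusted 0.05. On Western-style diet the CLDN4 counts were 41 to 184 in the 5 degenerating libraries and 6 to 22 in the other 6, so counting error is not small. The deepest libraries, with 83542975 to 85459124 reads against 55465257 to 67871397 in the other 16, were Chow+T 1, WSD+T 3 and WSD+T 4, all degenerating. The part of depth in these values was not tested.

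By treatment, CLDN4 was 0.347, 5.99, 0.540 and 0.207 CPM in Chow+C 1 to 4, and 0.490, 0.267, 0.209 and 0.218 CPM in Chow+T 1 to 4. In WSD+C 1 to 5 it was 0.391, 0.351, 0.280, 0.967 and 1.41 CPM, and WSD+T ran from 0.153 to 3.60 CPM with a median of 1.14. Chow+C 2 stood alone above its group. It also had the smallest share of reads in genes, and it held the highest value of 17.7% of all 15019 genes, close to the 18.9% of WSD+C 4. The part of these library differences in the CLDN4 value was not tested. The fitted log2 difference between diets was 0.43 (SE 0.668), and 1.57 without Chow+C 2. In that comparison edgeR called 0% of 15019 genes, and 6.87% passed an unadjusted 0.05. Between degenerating and MI it was 2.03 (SE 0.879), and 0.72 with no treatment term.

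The other claudins differed in how far they resembled CLDN4. CLDN7 had a rho of 0.48 with it over 19 libraries, and 0.46 without WSD+C 4, on few counts. It had 31 counts in WSD+C 4, 25 in WSD+T 4, 7 in WSD+T 6, 1 each in Chow+T 1 and WSD+T 1, and 0 in the rest, all 8 MI libraries among them. CLDN3, a barrier claudin, was 1.04 CPM in WSD+C 4 and 30.4 to 165 elsewhere, with its highest value in WSD+T 3, where CLDN4 ranked second. CLDN1, another barrier claudin, was 2.57 CPM in WSD+C 4 and 84.2 to 556 elsewhere. CLDN4 and CLDN3 had a rho of 0.22 over libraries. The 3 claudins are named here after their values were seen.

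The genes most like CLDN4 were ZNF589 (rho 0.82), ZNF841 (0.81), WDR27 (0.81), FAM43A (0.80) and AP2A1 (0.80), an adaptor protein of endocytosis. Each stayed at 0.78 or above without WSD+C 4.

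MSLN, the mesothelin gene, was read at 16.7 CPM in WSD+C 4 from 710 counts, which were 77.6% of its 915 counts over all libraries. WSD+T 4 followed at 2.25 CPM (117 counts), WSD+T 1 at 0.550 (19 counts), WSD+C 5 at 0.298 (12 counts) and WSD+T 6 at 0.291 (11 counts). The other 14 libraries held 6 counts or fewer. Chow+C 1 held 0 counts, which allows a level of up to 0.0800 CPM, taking 3 counts as the limit.

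The 8 chow libraries lay between 0 and 0.115 CPM and the 11 on Western-style diet between 0.0467 and 16.7 with a median of 0.162. The groups overlapped at these low counts, and 8 of 11 on that diet lay above the overall median of 0.102 CPM, against 1 of 8 on chow. Degenerating libraries had a median of 0.294 CPM (0.0588 to 16.7) and MI libraries 0.0883 (0 to 0.162). MII libraries were at 0.115, 0.0889, 0.0521 and 0.550 CPM (Chow+C 4, Chow+T 2 and 3, WSD+T 1). In 4 of the 6 degenerating libraries MSLN was above the highest MI library. Chow+T 1 (0.0588 CPM) and WSD+T 3 (0.0782 CPM) were within the MI range.

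MSLN passed the filter on low counts through 5 libraries, all on Western-style diet and 4 of them degenerating, so it had to differ between the diets to be fitted. The fitted log2 differences were 4.44 (SE 1.19) between diets and 4.53 (SE 1.11) between degenerating and MI, and 2.28 and 2.43 without WSD+C 4.

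The pair of libraries with the most MSLN differed in their other epithelial genes, named here after their values were seen. In WSD+C 4, ALDH1A2, a retinoic acid synthesis enzyme, was at 72.7 CPM against at most 8.35 elsewhere, and BNC1, a transcription factor, at 4.86 CPM against at most 0.138. Others of the 22 mesothelium and surface genes in the table were not high there. EZR, a membrane linker, was at 283 CPM and TM4SF1 at 44.9, the lowest of 19 libraries for both, and CALB2, the calretinin gene of mesothelium, had 0 counts there and at most 0.0431 CPM in any library. The list reached 1 CPM with 18 genes in WSD+C 4 and 10 to 14 in the others. Its summed CPM there was 915, within the 669 to 2095 of the others. That sum mostly follows its most abundant genes, EZR, TM4SF1 and PDPN (means 712, 377 and 142 CPM over 19 libraries). It therefore says little about the less abundant genes of the list. WSD+T 4 held 181 CPM of OVGP1, the oviductal glycoprotein, against at most 4.98 elsewhere, while ALDH1A2 was at 0.250 CPM and BNC1 at 0 counts there. Both libraries held EHF, an epithelial transcription factor (5.87 CPM in WSD+C 4 and 4.54 in WSD+T 4), and FOXJ1, the regulator of motile cilia (23.7 and 5.52 CPM). Of 8 tubal genes looked up, 7 were in the table, and without OVGP1 the other 6 summed to 34.9 CPM in WSD+T 4, 54.3 in WSD+C 4 and 8.74 to 32.1 elsewhere. The part of tubal or mesothelial cells in the MSLN values was not tested.

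CDH1, the adhesion molecule that defines many epithelia, was 1.53 CPM in WSD+C 4 and 0.577 in WSD+T 4. WSD+T 3, which led in KRT18, had 0 counts of CDH1, 0.156 CPM of EPCAM and 0.0782 CPM of MSLN. CDH1 was low in most libraries, with a median of 0.0233 CPM over all 19. The same library had the highest CLDN3 and the second highest CLDN4, so it was not low in every epithelial gene.

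The genes most like MSLN over 19 libraries were ANXA11 (rho 0.69), an annexin, MTSS1 (0.69), HMCN1 (0.65), an extracellular matrix protein, SREK1IP1 (0.64) and POPDC3 (0.62). These rest on few MSLN counts in most libraries, and the ranks of such low values carry little weight. MSLN and the claudin CLDN7 had a rho of 0.63, and 0.55 without WSD+C 4.

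ITLN1, the intelectin, was 53.3 CPM in WSD+C 4 from 2258 counts, 83.2% of its 2715. The next library was Chow+C 4 at 1.17 CPM, so that the first was 45.4 times the second. The remaining 18 libraries together spanned 0.235 to 1.17 CPM, from 12 to 51 counts. Among them, chow, Western-style diet and the oocyte classes were interleaved.

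Chow+C 1 to 4 held 0.613, 0.446, 0.566 and 1.17 CPM of ITLN1 and Chow+T 1 to 4 held 0.235, 0.711, 0.313 and 1.02. WSD+C 1 to 5 held 0.952, 0.405, 0.561, 53.3 and 0.620, and WSD+T ran from 0.408 to 0.978 with a median of 0.485. All 4 groups overlapped once WSD+C 4 was set aside, with WSD+C at 0.634 ± 0.230 (SD, n = 4) and Chow+C at 0.700 ± 0.323 (n = 4). The degenerating libraries without it averaged 0.545 ± 0.279 CPM (n = 5) and the MI libraries 0.555 ± 0.178 (n = 8). The fitted log2 difference between diets went from 2.01 (SE 0.836) to -0.05 without WSD+C 4, and that between degenerating and MI from 2.58 (SE 1.09) to 0.27.

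Its most alike genes were KIF22 (rho 0.90), a mitotic kinesin, NR1H3 (0.86), the liver X receptor alpha, MKI67 (0.85), a proliferation marker, ESPL1 (0.85), the separase, and CDCA8 (0.85), a chromosomal passenger protein. They stayed at 0.82 to 0.88 without WSD+C 4. ITLN2, the paralog, had a rho of 0.11 with ITLN1.

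**Figure D3:**
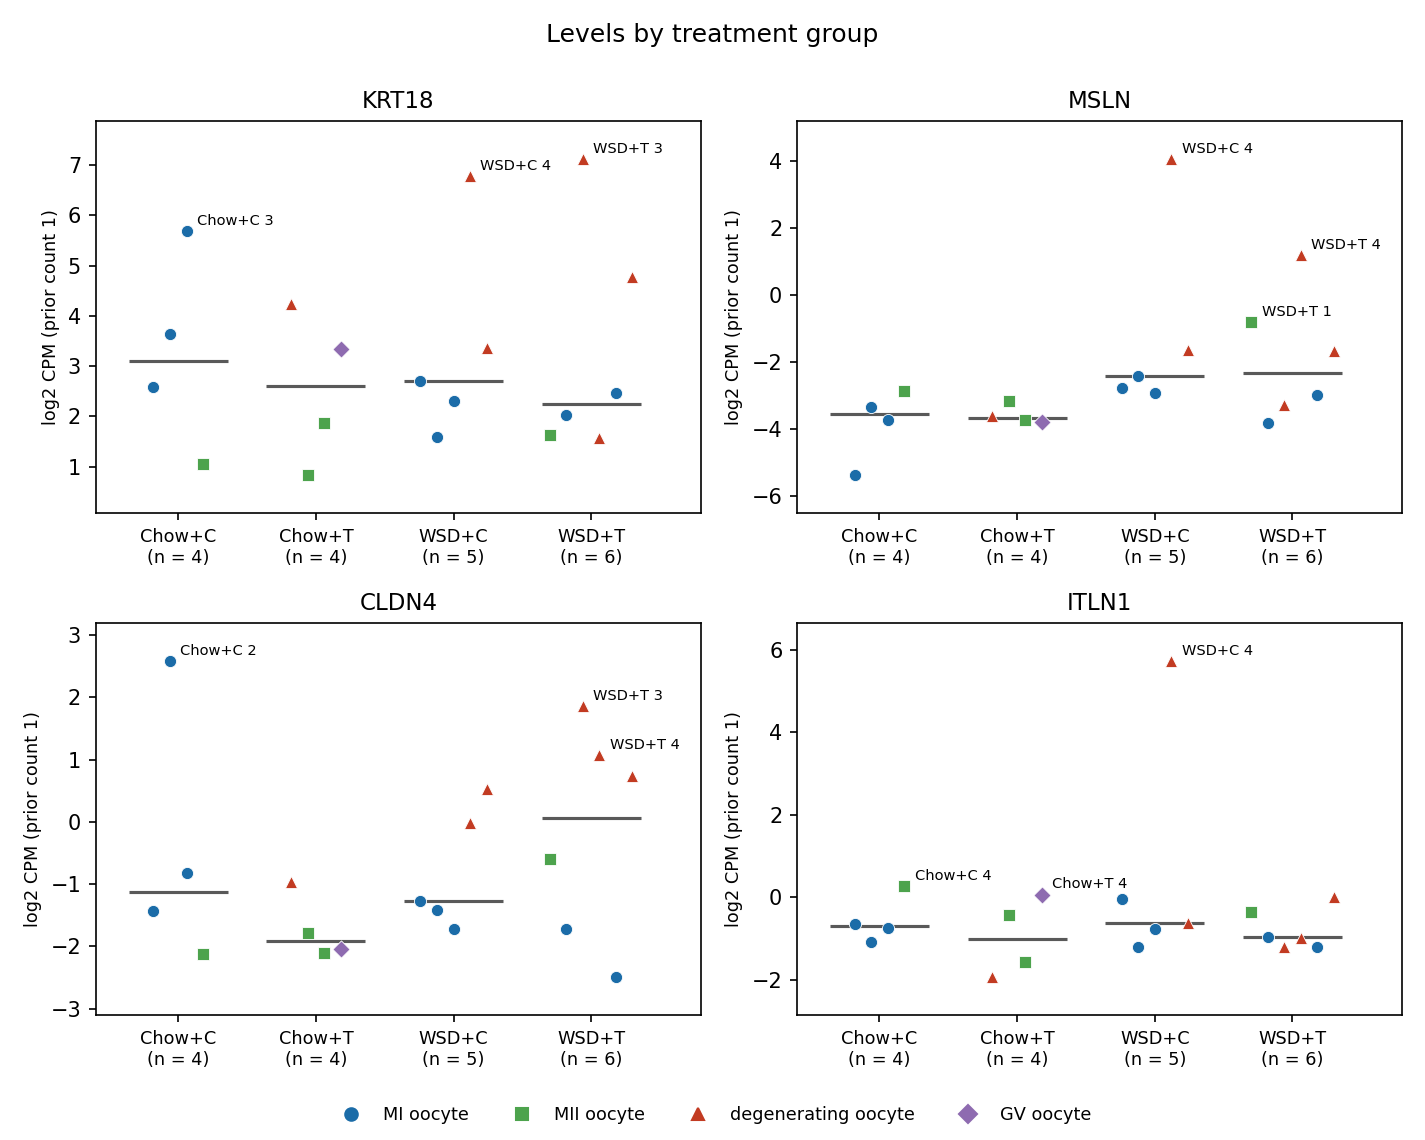
Level of KRT18, MSLN, CLDN4 and ITLN1 in each of 19 libraries by treatment group (vertical axis log2 CPM with a prior count of 1; points are libraries, lines are medians, and the 3 highest libraries of each gene are named). The groups overlap for KRT18, CLDN4 and ITLN1, and the MSLN values of the chow groups are at most 0.115 CPM.

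Between members, KRT18 and CLDN4 were the most alike pair (rho 0.53 over 19 libraries, 0.51 without WSD+C 4). KRT18 and MSLN had a rho of -0.11, MSLN and CLDN4 0.39, MSLN and ITLN1 0.32, and CLDN4 and ITLN1 -0.01. All points share their library, depth and scaling, so these are descriptions. With the mean rank of the 4 genes, the most alike genes were CC2D1B (rho 0.84), MFSD4 (0.83), CCDC61 (0.83), CCDC174 (0.80) and UNC13D (0.80).

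The comparisons that the choice of genes did not use were the testosterone effect and MII against MI. The effects of testosterone, averaged or on each diet, and their interaction share libraries with the diet contrasts. MII against MI shares its 8 MI libraries with degenerating against MI, so it is not independent of the choice either. WSD+C 4, the library with the highest MSLN and ITLN1, is on the cholesterol side of the averaged effect and of the effect on Western-style diet. It enters the interaction in the same way. These effects are therefore not independent of the choice for these genes, and the p-values of ITLN1 for them, given below, decide nothing. With edgeR's quasi-likelihood test and Benjamini-Hochberg adjustment over all genes, none of the 4 members passed 0.05 in any of these comparisons. No gene at all was called in these comparisons (0% of 15019 genes for testosterone and of 14976 for MII against MI), so the members' count equals the background.

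Averaged over both diets, the log2 difference with testosterone was -0.44 for KRT18 (95% interval -2.35 to 1.46, adjusted p = 0.927) and -0.76 for CLDN4 (-2.16 to 0.64, adjusted p = 0.829). It was -1.30 for MSLN (-3.59 to 0.98, adjusted p = 0.819) and -2.27 for ITLN1 (-3.99 to -0.56, adjusted p = 0.767). Without WSD+C 4 it was 0.62 for KRT18, 0.86 for MSLN and -0.21 for ITLN1, and without Chow+C 2 it was 0.37 for CLDN4. By edgeR's unadjusted p, 6.31% of all genes passed 0.05, and so did ITLN1. MSLN entered these fits only through 5 libraries, all on Western-style diet. Its p-values for testosterone and for the interaction, here and below, therefore decide nothing.

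On chow, CLDN4 differed by -2.56 with testosterone (interval -4.80 to -0.31, unadjusted p = 0.0281, adjusted p = 0.659), and by -0.29 without Chow+C 2. The other members had adjusted p of 0.886 or more, and 7.18% of genes passed an unadjusted 0.05. On Western-style diet, ITLN1 differed by -4.25 (interval -6.59 to -1.91, unadjusted p = 0.0013, adjusted p = 0.999) and by -0.11 without WSD+C 4. MSLN differed by -2.64 there (-5.32 to 0.03), and by 1.68 without that library. KRT18 differed by 0.18, and by 2.30 without it. On this diet 3.86% of all genes passed an unadjusted 0.05.

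The difference between the testosterone effects on the 2 diets, on the log2 scale, was 3.59 for CLDN4 (interval 0.70 to 6.49, unadjusted p = 0.018, adjusted p = 0.933), and 1.33 without Chow+C 2. For ITLN1 it was -3.94 (unadjusted p = 0.0257, adjusted p = 0.933), and 0.19 without WSD+C 4. KRT18 (1.25) and MSLN (-2.68) had adjusted p of 0.984 and 0.944, and stood at 3.37 and 1.64 without WSD+C 4. Of all genes, 4.52% passed an unadjusted 0.05.

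Between MII and MI libraries, with the treatment group as a term, KRT18 differed by -1.18 (interval -3.94 to 1.57), and by -1.88 without WSD+C 4. CLDN4 differed by -0.18. ITLN1 differed by 2.04 (interval -0.45 to 4.52), and by 1.02 without WSD+C 4, which belongs to neither class and enters through the treatment term. Its class means were close, at 0.737 ± 0.352 CPM (SD, n = 4) in MII and 0.555 ± 0.178 (n = 8) in MI.

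For MSLN the fitted MII to MI value was 3.30 (interval 0.64 to 5.96), and it was 2.05 without WSD+C 4 and 1.22 with no treatment term. No weight is placed on it, since the medians were 0.102 and 0.0883 CPM, MII libraries held 2 to 19 counts, and no MI library reached the filter's level. By unadjusted p, 3.91% of genes passed 0.05 in this comparison.

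**Figure D4:**
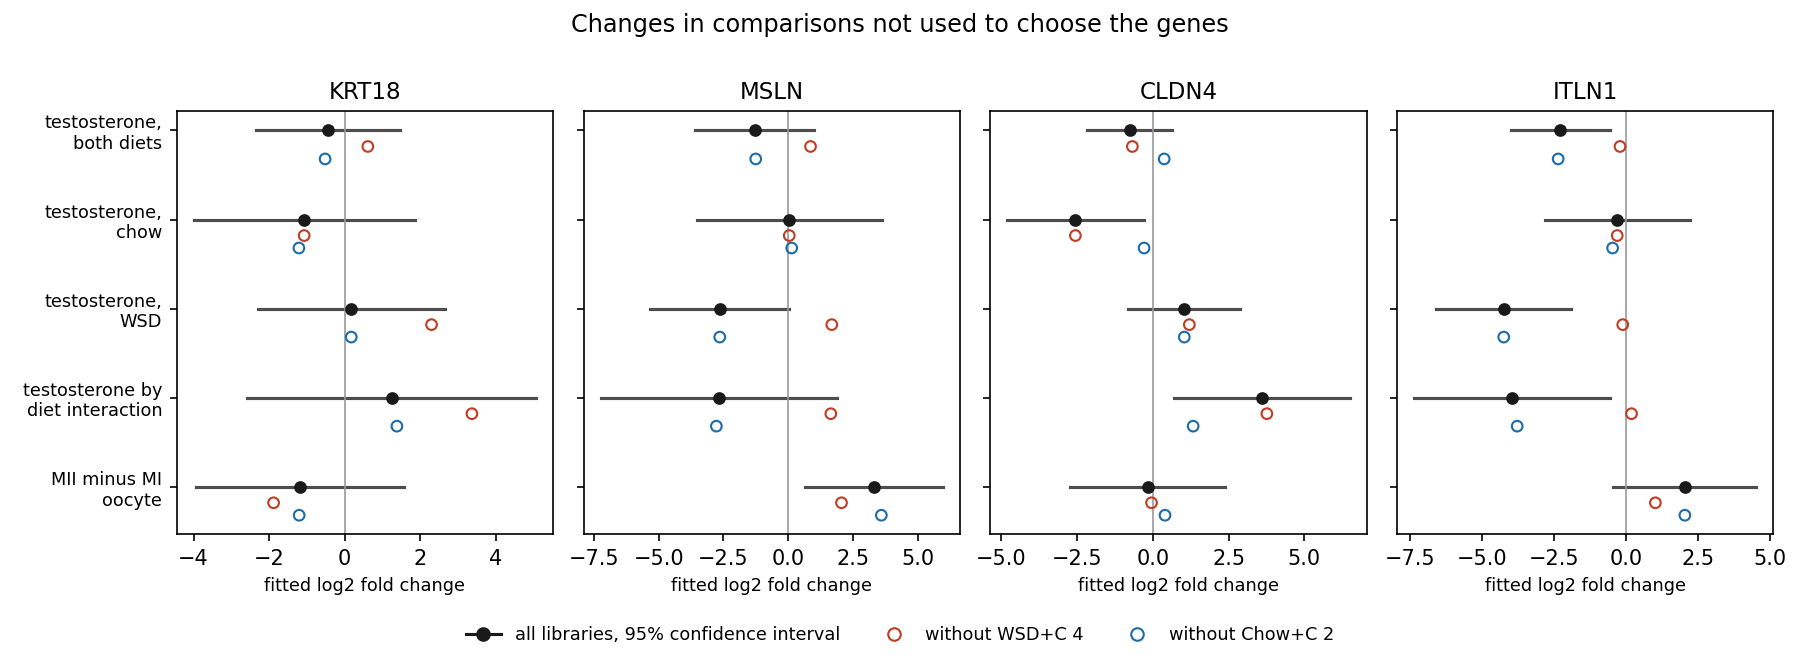
Fitted log2 fold changes of the 4 genes with 95% confidence intervals in the 5 comparisons that did not choose them, from edgeR. These comparisons share libraries with those that did. Open red points leave out WSD+C 4 and open blue points leave out Chow+C 2, and ITLN1 on Western-style diet moves from -4.25 to -0.11 without WSD+C 4.

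Other epithelial genes were read from lists chosen with earlier results of these data known. In the main edgeR fits, none of their members passed the threshold in any of the 7 comparisons. In degenerating against MI, the 17 tested genes of epithelial adhesion and its regulators had a median log2 difference of 0.88, with 12 above 0, against a median of 0.02 over all genes and 52.0% above 0. The 3 other simple keratins tested had a median of 1.43, and KRT8 itself differed by 1.54 (SE 0.657, adjusted p = 0.313). Mesothelium and surface genes (17 tested) had a median of 0.54 with 13 above 0, and tight junction genes (20 tested) of 0.01 with 10 above 0. The list medians, here and below, include WSD+C 4 and were not computed without it. That library was highest for 16 of 26 adhesion genes and 4 of 6 simple keratins in the table. It was also highest for 9 of 22 mesothelium and surface genes and 10 of 28 tight junction genes, against 18.9% of all 15019 tested genes. The list counts include genes too low to be tested, so they are not a like share. DESeq2, run on the same model as an alternative, had EHF, ESRP1, GRHL1 and ST14 rise among 25 adhesion genes, KRT23 among 6 keratins, LGR5 among 19 mesothelium and surface genes, and none of 22 tight junction genes. Over all genes DESeq2 had 5.26% of 17211 rise. It also had 13 of 13 leukocyte genes and FOXJ1 among 6 tubal genes rise. EdgeR without a treatment term had GRHL1 and ST14 rise among 17 adhesion genes, FOXJ1 among 6 tubal genes, and 13 of 14 leukocyte genes. That fit had none rise among the simple keratins, mesothelium and surface genes, and tight junction genes. Its calls over all genes are given in the last section. ESRP1 was at 16.9 CPM in WSD+C 4 and at most 0.966 elsewhere. Degenerating and MI medians were 0.0363 and 0.0250 CPM for ESRP1, and 0.0627 and 0.0128 for EHF. They were 0.479 and 0.131 for GRHL1, 1.73 and 0.587 for ST14, 0.135 and 0.0656 for KRT23, and 0.241 and 0.0501 for LGR5. In the diet comparison the median log2 differences were 0.45, 0.19, -0.00 and -0.03 in the same order of adhesion, keratins, mesothelium and tight junction. In the same degenerating comparison, 14 of 14 leukocyte genes were above 0 with a median of 4.49, and the 11 granulosa genes had a median of -0.43.

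With testosterone, averaged over both diets, the medians were -0.35 for adhesion genes (6 of 17 above 0), -0.77 for simple keratins (0 of 3), -0.49 for mesothelium and surface genes (4 of 17) and -0.10 for tight junction genes (8 of 20). Between MII and MI they were 0.26, -0.40, 0.67 and -0.06 in that order.

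WSD+C 4 held the highest value of 26 of the 61 listed epithelial genes tested (42.6%), against 18.9% of all 15019 genes. Of 26 adhesion genes in the table, 22 reached 1 CPM in WSD+C 4 and 13 in WSD+T 4, against 7 to 10 in the other libraries. The adhesion genes CDH3 (84.5 CPM), DSP (605 CPM), the desmosomal plaque protein, and ESRP1 (16.9 CPM), an epithelial splicing regulator, were examples in WSD+C 4, named after their values were seen.

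**Figure D5:**
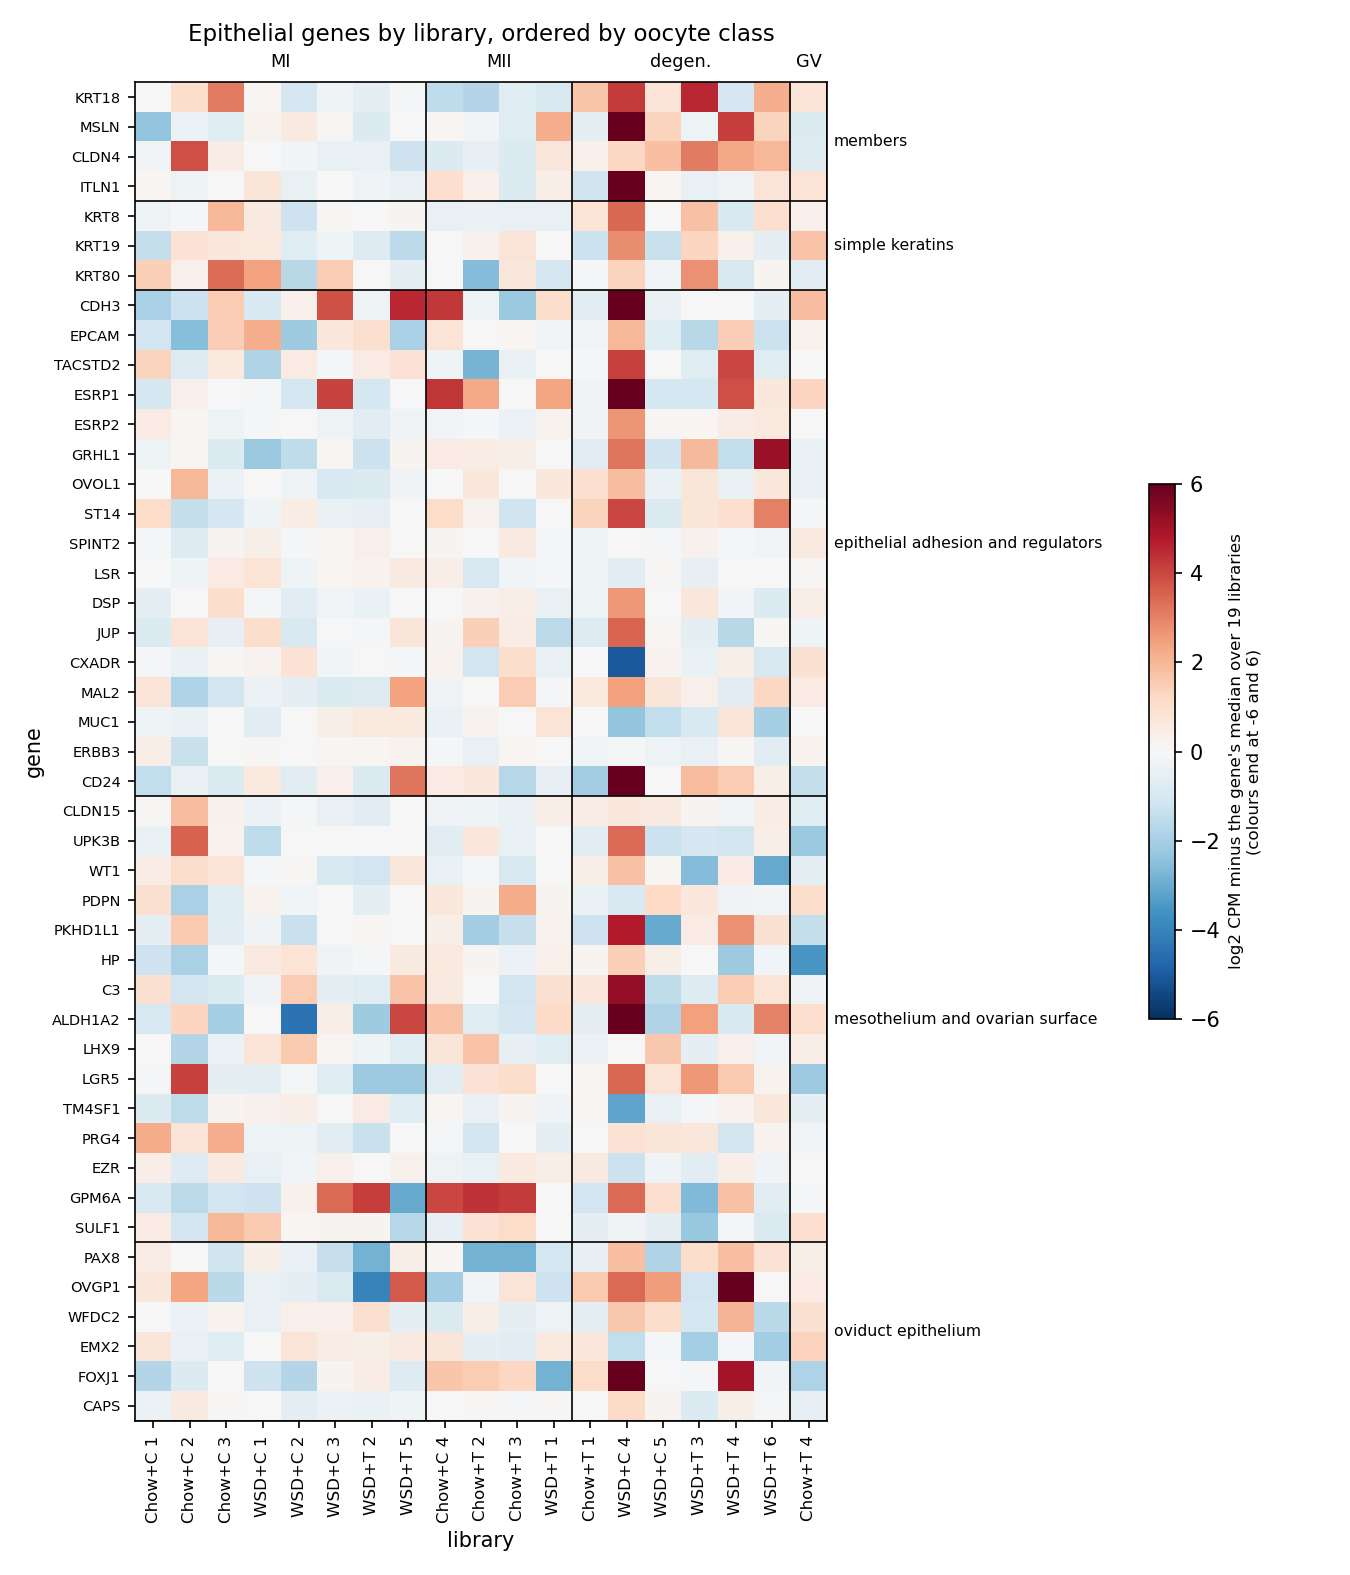
Level of listed epithelial genes in 19 libraries ordered by oocyte class, as log2 CPM minus the gene's median over all libraries, with colours ending at -6 and 6. WSD+C 4 is the column with the most high values, and WSD+T 4 holds a smaller set.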

How the data were processed

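The authors deposited unnormalized counts of reads for each gene. The submitters' processing notes name Trimmomatic and STAR. Tool versions, the build and the annotation are unstated in the sources used here, so coordinates are left out. PolyA libraries carried no strand, per the labels, so overlapping or antisense genes cannot be told apart. Every title carries its own number, taken as 1 animal per library.

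Testing used edgeR 4.0.16 in R 4.3.3 on TMM-scaled counts: filterByExpr by group (at least 10 counts, total 15) kept 15019 genes for treatment and 14976 for oocyte class. The robust quasi-likelihood test was two-sided, Benjamini-Hochberg adjusted across the whole table, with 0.05 as threshold. Treatment contrasts came from one model of all 19 libraries. Oocyte contrasts came from 18 libraries (the GV library has no replicate) and kept treatment group as a term. The common dispersion was 0.340, a coefficient of variation of 0.583 between animals, and reads carry no molecular identifiers. DESeq2 1.42.0, other scalings and filters, and leaving out libraries were the alternatives. The procedure was tested on simulated data.

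The genes, lists and tests were chosen with earlier results of these data known. Named genes were the members, listed epithelial genes past the threshold, and, per member and for their mean rank, the 5 genes with the highest Spearman rho of log2 CPM (prior count 1) over libraries, among tested genes that have a symbol and average 0 or more on that scale. Others are named as chosen after their values were seen.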

Additional observations from a re-analysis of the deposited data

Results flagged for a closer look

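In 13 of 28 groups of libraries looked at, 1 library lay far from the others by Dixon's criterion. Normal data would meet it in about 1 group in 20, but CPM was not log-transformed and the genes were chosen for high values. The groups also share libraries, so the 13 flags do not measure an excess over chance. For KRT18 the flagged libraries were WSD+C 4 within WSD+C (109.3 CPM, nearest 10.2), WSD+T 3 within WSD+T (139 CPM, nearest 27.2) and Chow+C 3 among MI libraries (51.5 CPM, nearest 12.5). For MSLN they were WSD+C 4 within WSD+C (16.7 CPM, nearest 0.298) and among degenerating libraries (16.7 CPM, nearest 2.25), WSD+T 4 within WSD+T (2.25 CPM, nearest 0.550) and WSD+T 1 among MII libraries (0.550 CPM, nearest 0.115).

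For CLDN4 they were Chow+C 2 within Chow+C and among MI libraries (5.99 CPM, nearest 0.540 in both) and WSD+T 1 among MII libraries (0.637 CPM, nearest 0.267). For ITLN1 they were WSD+C 4 within WSD+C (53.3 CPM, nearest 0.952) and among degenerating libraries (53.3 CPM, nearest 0.978), and WSD+C 1 among MI libraries (0.952 CPM, nearest 0.613). WSD+C 4 accounted for 5 of the 13, and the cause was not tested.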

How the results depend on the processing

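No paired analysis was possible because replicate numbers were given in sample order and pair no libraries across groups. Numbers of genes called were 0 with edgeR in all 7 comparisons. DESeq2 called 4 for testosterone over both diets, 6 on chow, 0 on Western-style diet, 3 for the interaction, 5 for diet, 7 for MII against MI and 1001 for degenerating against MI. Without a treatment term edgeR called 574 in the last. Leaving out 1 library gave 0 to 1 calls for diet (1 without Chow+C 4) and 0 to 226 for degenerating against MI (226 without Chow+T 1). No member passed 0.05 adjusted in a tested comparison under any alternative, and DESeq2 gave MSLN and ITLN1 no adjusted p for testosterone. Signs of log2 differences turned when 1 library was left out, over ranges for testosterone on both diets of -2.00 to 0.86 (MSLN), -1.36 to 0.62 (KRT18) and -1.03 to 0.37 (CLDN4), and on chow of -0.36 to 0.60 (MSLN), -0.74 to 0.069 (ITLN1) and -1.80 to 0.34 (KRT18). On Western-style diet they were -4.04 to 1.68 (MSLN) and -1.64 to 2.30 (KRT18), for the interaction -4.08 to 1.64 (MSLN), -4.30 to 0.19 (ITLN1) and -0.57 to 3.37 (KRT18), and for MII against MI -1.22 to 1.22 (CLDN4). Without WSD+C 4 and WSD+T 6 together, KRT18 over both diets was 0.63, and MSLN was left out by the filter. With oocyte class as a term, MSLN was -2.39 on chow and 0.17 for the interaction. The cause was not tested. Few counts of MSLN, CLDN4 and ITLN1 limit what these libraries can show, and the 5 degenerating libraries on Western-style diet leave diet and class hard to separate.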
